A study of Mus musculus with 60 samples.

Results

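Germline genes are a class of genes that most mouse somatic and embryonic cells keep repressed by methylation of CpG-rich promoters. In this data set 10 of them, of 55487 genes counted, were followed across all 20 groups of libraries: Sycp1, Sycp3, Ddx4, Mael, Asz1, Stk31, Tex19.1, Dazl, Slc25a31 and Dppa3. They were chosen by name, with earlier results of these data known, and each symbol matched 1 gene row of the tables. DNA methylation is laid down at promoters by the DNMT3 enzymes and copied at each division by DNMT1 with UHRF1. In somatic lineages it acts on these genes together with the PRC1.6 complex and H3K9 methyltransferases, and germ cells erase it during their development, when the genes come on. The genes serve different steps of the germ cell programme, namely the pairing of meiotic chromosomes, the piRNA pathway that silences transposons, the control of germ cell mRNAs, and sperm and egg functions. Mouse embryonic stem cells (mESCs) in serum and LIF, which sustains self-renewal, express several of them. Methylation itself was not measured in these libraries, and only RNA levels are reported.

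The cells were E14JU mESCs in which POLE4, a subunit of DNA polymerase epsilon that passes parental histones to the leading strand, carried a degradation tag (POLE4-dTAG). A second line carried in addition MCM2-2A, a mutant of the replicative helicase subunit MCM2 that cannot bind histones and so impairs their transfer to the lagging strand. Each background was treated with DMSO (Ctrl) or with the degrader dTAG-13 at 1 µM, which degrades POLE4 (dPOLE4). Cells were harvested after 24 h of treatment (T0), and after 12 h (T12), 24 h (T24) or 60 h (T60) in medium with retinoic acid (RA) and no LIF, and in a separate experiment after 96 h of treatment in serum and LIF. All groups carried the tagged POLE4. Each background was 1 clonal line, so that an effect of MCM2-2A and a difference between clones cannot be told apart. The cells grew on gelatin, and no feeder cells were described.

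There were 3 libraries of each group and 60 in all. The 48 libraries of T0 and RA held from 10461077 to 46609151 counts each, and the 12 of the 96 h experiment from 7126100 to 23598266. Markers of embryonic stem cells (Pou5f1, Nanog, Sox2, Zfp42, Esrrb and Klf4) summed to 2612 to 2713 CPM in Ctrl at T0 and to 2627 to 3050.2 CPM in Ctrl MCM2-2A. Levels below are CPM, the counts of a gene scaled to a common library size, after TMM normalization within an experiment, given for replicates 1, 2 and 3 in that order. A log2 fold change is followed by ± its standard error (SE), and its p is that of edgeR's quasi-likelihood F test after Benjamini-Hochberg adjustment over all features tested. A gene was called differentially expressed (DE), and is said to rise or fall, at an adjusted p below 0.01 with a log2 fold change beyond 0.58 in size. The methods call the replicates biological without saying whether they were separate cultures, and the p-values then measure only the spread between these libraries. In bulk RNA a smaller share of expressing cells and less RNA per cell cannot be told apart.

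The promoters of these genes are rich in CpG sites, the target of the methylation described above. RefSeq gives a promoter window, from 250 bases before to 50 bases after the start of transcription, for 9 of the 10 genes (build GRCm38.p6), with 2 starts for Stk31. The windows hold between 15 and 38 CpG sites, and the median over 32851 promoters is 7. The part of the window before the start is printed for the 4 genes that were higher in MCM2-2A cells in most comparisons below and for Dazl, which was DE in none of them. Sequences run from 5′ to 3′ on the gene's strand, and capitals mark CpG sites.
Sycp3: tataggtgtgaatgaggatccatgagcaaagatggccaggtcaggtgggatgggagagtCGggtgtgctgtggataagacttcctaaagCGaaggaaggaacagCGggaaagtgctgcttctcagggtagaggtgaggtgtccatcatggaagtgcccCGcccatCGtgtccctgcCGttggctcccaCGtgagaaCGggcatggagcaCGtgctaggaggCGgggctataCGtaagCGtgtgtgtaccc
Sycp1: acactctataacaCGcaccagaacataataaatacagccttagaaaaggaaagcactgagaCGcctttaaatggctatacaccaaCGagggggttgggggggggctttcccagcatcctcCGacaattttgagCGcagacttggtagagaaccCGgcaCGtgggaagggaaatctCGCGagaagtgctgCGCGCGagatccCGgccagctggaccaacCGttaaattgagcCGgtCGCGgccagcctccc
Mael: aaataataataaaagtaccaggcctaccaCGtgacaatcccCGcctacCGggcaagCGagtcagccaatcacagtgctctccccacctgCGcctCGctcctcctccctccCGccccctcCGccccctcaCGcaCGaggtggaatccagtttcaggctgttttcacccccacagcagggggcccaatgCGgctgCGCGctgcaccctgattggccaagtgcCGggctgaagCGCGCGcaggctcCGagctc
Ddx4: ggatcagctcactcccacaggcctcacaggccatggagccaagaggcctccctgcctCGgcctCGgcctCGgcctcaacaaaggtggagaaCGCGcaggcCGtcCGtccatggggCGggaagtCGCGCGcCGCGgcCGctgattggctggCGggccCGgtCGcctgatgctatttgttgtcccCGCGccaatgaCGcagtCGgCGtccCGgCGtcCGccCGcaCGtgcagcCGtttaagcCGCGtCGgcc
Dazl: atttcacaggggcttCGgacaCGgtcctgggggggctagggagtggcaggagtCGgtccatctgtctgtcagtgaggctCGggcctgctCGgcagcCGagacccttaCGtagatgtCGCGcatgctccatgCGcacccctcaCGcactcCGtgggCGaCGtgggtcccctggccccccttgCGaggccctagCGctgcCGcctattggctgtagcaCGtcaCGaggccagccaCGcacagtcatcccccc

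These stretches of 250 bases lie at chr10:88459337-88459586, plus strand (Sycp3), chr3:102936101-102936350, minus strand (Sycp1), chr1:166238745-166238994, minus strand (Mael), chr13:112652311-112652560, minus strand (Ddx4) and chr17:50293621-50293870, minus strand (Dazl). They hold 12, 17, 18, 31 and 20 CpG sites in that order. Over the whole window Ddx4 had 38 CpG sites, more than 95.0% of all promoters, and Sycp3 had 15, more than 65.4%. The letters TCCCGC, which resemble a site of the repressor E2F6, and CACGTG, the E-box that MAX and MGA can bind, were searched on both strands of every window. TCCCGC was present in 6 of the 9 genes (Ddx4, Mael, Sycp1, Sycp3, Tex19.1 and Slc25a31) and in 20.0% of all promoters. CACGTG was present in 6 of the 9 genes (Ddx4, Mael, Sycp1, Sycp3, Stk31 and Slc25a31) and in 7.15% of all promoters. Neither occurred in Dazl and Asz1. Over the whole window Slc25a31, Ddx4, Mael, Sycp1 and Sycp3 hold both, the TCCCGC of Sycp1 and of Slc25a31 lying after the start and thus outside the 250 bases, and Dazl has neither despite its 28 CpG sites. TCCCGC and CACGTG each contain a CpG, and the shares over all promoters were not matched for CpG content. These matches are descriptions of the sequence and no binding was measured.

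The genes started from very different levels. Per kilobase of exon, Ctrl cells at T0 had 49.3 CPM of Tex19.1 and 31.7 CPM of Dppa3, both known from pluripotent cells as well as germ cells. Stk31 (5.29), Mael (5.14), Ddx4 (4.57), Sycp3 (3.74) and Dazl (3.08 CPM per kilobase) formed a middle group. Slc25a31 (1.02), Sycp1 (0.602) and Asz1 (0.125 CPM per kilobase) were lowest. The label of silenced genes therefore described Asz1 and Sycp1 better than Tex19.1 and Dppa3 in these cells. Sycp3 had 10 or more counts in 59 of the 60 libraries, Asz1 in 30, and each of the other genes in all 60.

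**Figure D1:**
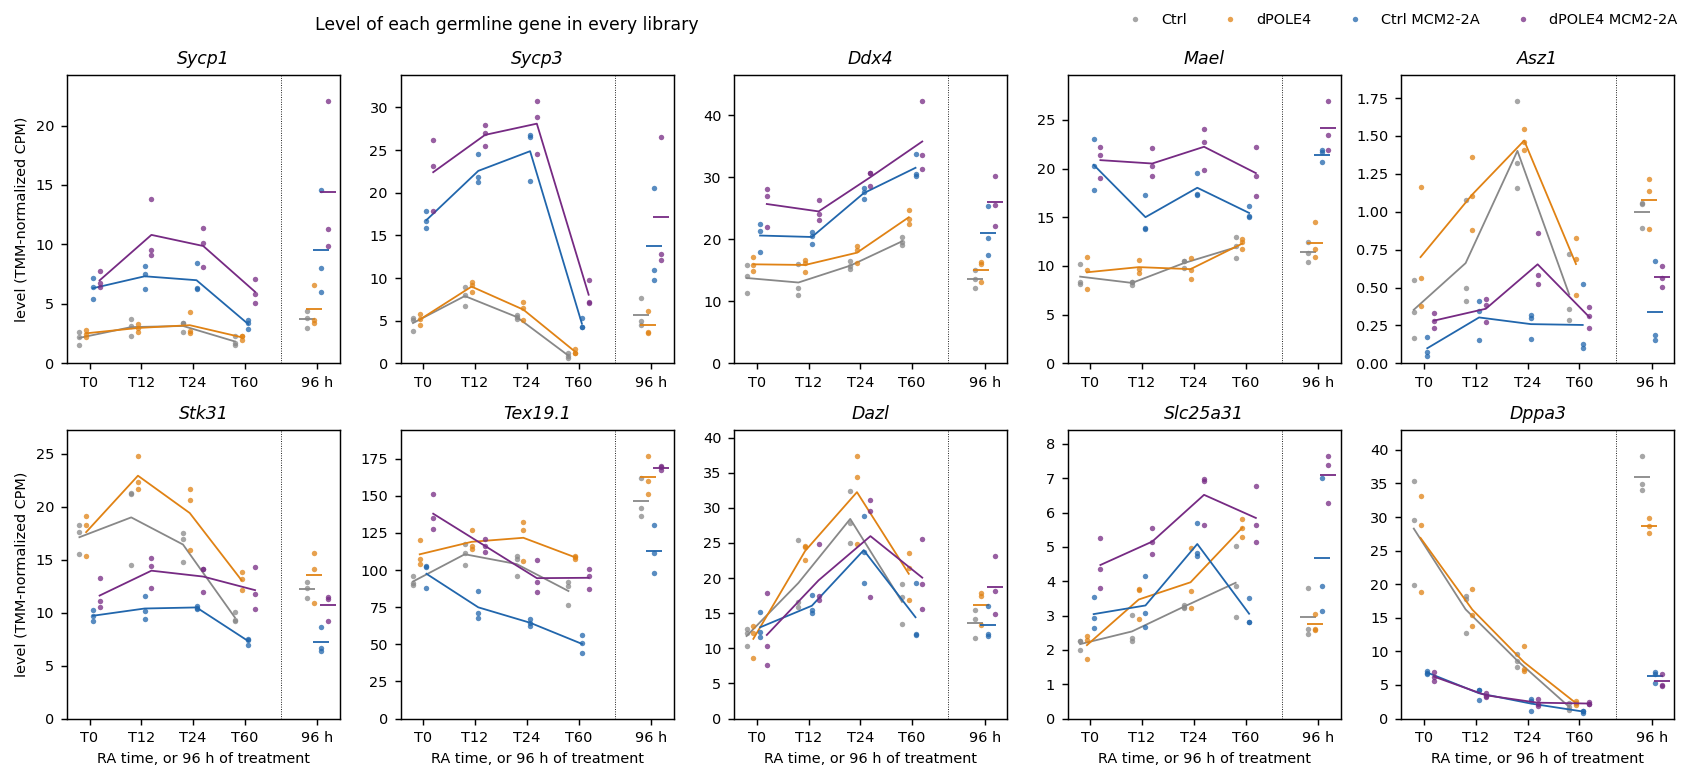
Level of each gene in every library, in TMM-normalized CPM on a linear axis, by time of RA (T0, T12, T24 and T60) and, right of the dotted line, after 96 h of treatment. Points are libraries, lines join the means of 3 libraries, and short bars are means at 96 h. At T0 the MCM2-2A points lie above the WT points for Sycp1, Sycp3, Ddx4 and Mael, and below them for Dppa3.

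The first comparison asked what the MCM2-2A background did to these genes, separately in Ctrl and in dPOLE4 cells. Sycp1 and Sycp3 rose in all 10 comparisons of MCM2-2A with WT, Mael and Ddx4 in 9 of 10 each, and Slc25a31 in 4. Dppa3 fell in 8, Stk31 in 5, Tex19.1 in 2 and Asz1 in 4 of the 5 in which it passed the filter on low counts. In 4 of the 5 comparisons that tested Asz1, called or not, at most 1 MCM2-2A library reached the cutoff of that filter. Dazl was DE in none of the 10. The genes thus moved in both directions, and the sizes ran from a log2 fold change of -2.50 (Dppa3, Ctrl, 96 h) to 2.58 (Sycp3, dPOLE4, T60).

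In Ctrl cells at T0, 5 of the 9 genes that passed the filter were DE (3 higher, 2 lower), against 18.9% of all features (9.83% higher, 9.06% lower). The same count was 4 higher and 2 lower of 9 at T12 (background 14.5% in all, 6.93% higher and 7.62% lower), 5 higher and 4 lower of 10 at T24 (background 17.3% in all, 9.71% higher and 7.6% lower). It was 3 higher and 1 lower of 9 at T60 (16.9%, 8.97% and 7.93%) and 4 higher and 3 lower of 10 at 96 h (15.7%, 9.23% and 6.47%). In dPOLE4 cells it was 5 higher and 1 lower of 9 at T0 (18.6%, 10.3% and 8.27%), 4 higher and 3 lower of 10 at T12 (18.4%, 9.88% and 8.52%). At the later times it was 5 higher and 2 lower of 10 at T24 (16.1%, 8.73% and 7.34%), 4 higher and 0 lower of 9 at T60 (20.4%, 11.2% and 9.25%), 5 higher and 1 lower of 10 at 96 h (16.4%, 9.7% and 6.67%). Asz1 accounts for 1 of the lower calls at T24 and 96 h in Ctrl and at T12 and T24 in dPOLE4. Without it the calls numbered 8, 6, 6 and 6 of 9 in these comparisons. With or without Asz1, the share of genes called was above the background in each of the 10 comparisons. Because the genes were chosen with earlier results of these data known, this excess is not an independent test. At T0 in Ctrl the libraries of 29.3% of all features lay all higher and those of 26.0% all lower in MCM2-2A, so that groups without overlap were common. These shares, unlike the levels of the 10 genes, come from counts scaled to library totals without TMM. The median log2 fold change of the genes tested at T0 was 0.45 in Ctrl and 0.70 in dPOLE4, and that of all features -0.02 and -0.00. At 96 h in Ctrl the count of 7 went down to 2 without Ctrl replicate 2 or without Ctrl replicate 3, and to 4 without Ctrl MCM2-2A replicate 3. At T60 in dPOLE4 it went from 4 to 2 without dPOLE4 MCM2-2A replicate 3.

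**Figure D2:**
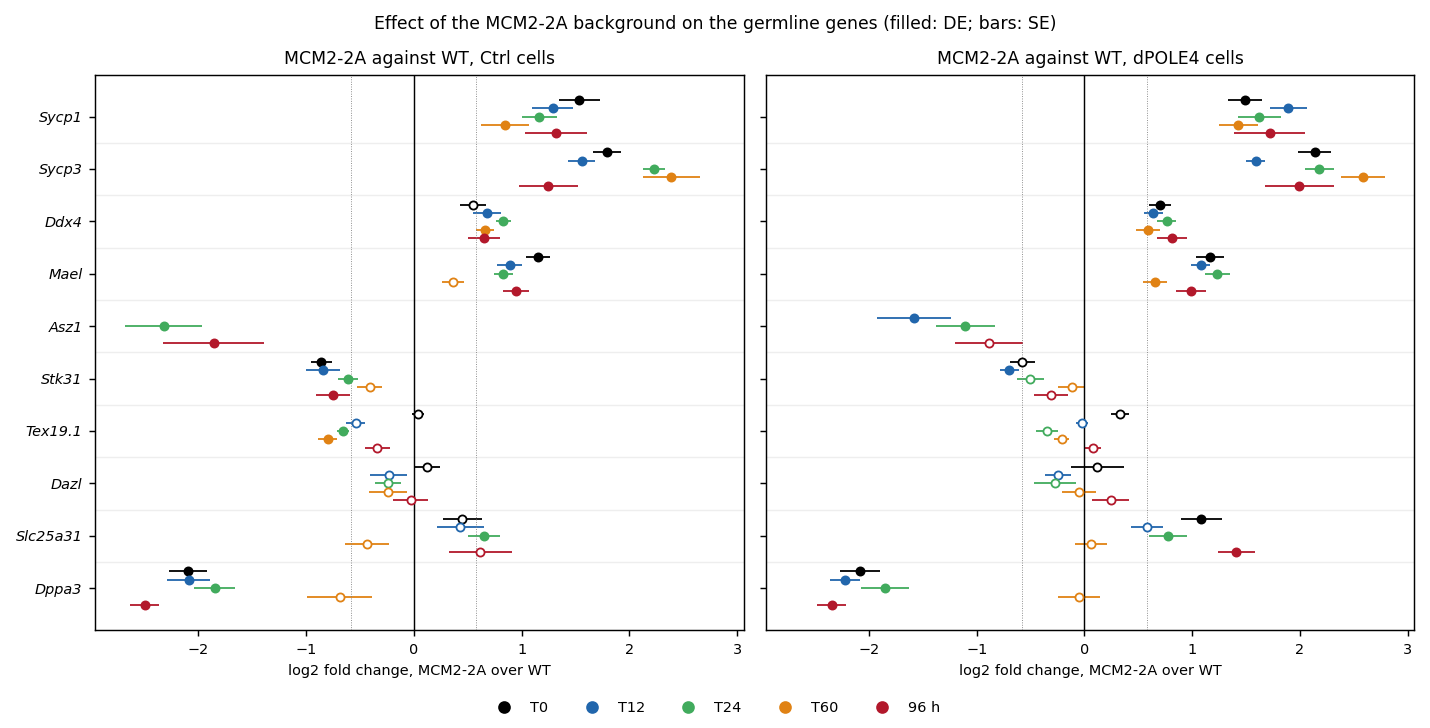
Log2 fold change of each gene between MCM2-2A and WT, in Ctrl cells (left) and dPOLE4 cells (right), at 5 times. Bars are SE, filled points are DE, open points are not, and dotted lines mark the fold change threshold of 0.58. Sycp1 and Sycp3 lie right of the threshold at every time, and Dppa3 lies left of it at every time but T60 in dPOLE4 cells.

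Among the genes of the synaptonemal complex, which zips paired chromosomes together in meiosis, Sycp3 encodes a component of its lateral elements. At T0 Sycp3 stood at 3.74, 5.33 and 5.11 CPM in Ctrl and at 16.7, 15.8 and 17.8 CPM in Ctrl MCM2-2A. In dPOLE4 cells it stood at 4.44, 5.20 and 5.73 CPM without and 26.2, 17.9 and 23.2 CPM with MCM2-2A. Every MCM2-2A library was above every WT library, and the log2 fold changes were 1.79 ± 0.13, adjusted p = 8.25e-07 in Ctrl and 2.14 ± 0.15, adjusted p = 1.24e-06 in dPOLE4. The same order held at T12, when the levels were 6.73, 8.03 and 8.92 CPM in Ctrl and 24.6, 21.2 and 21.9 CPM in Ctrl MCM2-2A (1.56 ± 0.12, adjusted p = 8.09e-06). In dPOLE4 cells at T12 they were 9.14, 9.51 and 8.36 CPM and 27.9, 25.5 and 27.0 CPM (1.59 ± 0.09, adjusted p = 3.27e-10). MCM2-2A cells reached their highest Sycp3 mean at T24, and the groups were again apart.

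At T24 the Sycp3 levels were 5.47, 5.65 and 5.22 CPM in Ctrl against 26.6, 26.7 and 21.3 CPM in Ctrl MCM2-2A (2.23 ± 0.10, adjusted p = 6.30e-11). They were 5.14, 7.25 and 6.51 CPM in dPOLE4 against 30.8, 24.6 and 28.9 CPM in dPOLE4 MCM2-2A (2.18 ± 0.14, adjusted p = 1.07e-06). By T60 WT cells were close to 1 CPM and MCM2-2A cells were several times higher. The T60 values were 0.600, 1.25 and 0.849 CPM in Ctrl, 5.36, 4.29 and 4.28 CPM in Ctrl MCM2-2A (2.39 ± 0.26, adjusted p = 4.12e-06), 1.65, 1.17 and 1.27 CPM in dPOLE4 and 7.25, 7.09 and 9.80 CPM in dPOLE4 MCM2-2A (2.58 ± 0.21, adjusted p = 6.50e-07). In the 96 h experiment Sycp3 was at 7.69, 4.54 and 4.94 CPM in Ctrl and 20.6, 9.74 and 10.9 CPM in Ctrl MCM2-2A (1.25 ± 0.28, adjusted p = 0.00348). It was at 6.08, 3.61 and 3.68 CPM in dPOLE4 and 26.6, 12.1 and 12.8 CPM in dPOLE4 MCM2-2A (1.99 ± 0.32, adjusted p = 5.54e-04). Replicate 1 was the highest of its group in all 4 groups at 96 h, and with the replicate number as a block the log2 fold changes were 1.27 ± 0.14, adjusted p = 5.74e-06 in Ctrl and 1.94 ± 0.12, adjusted p = 2.56e-09 in dPOLE4. The Ctrl call at 96 h without the block was lost when Ctrl replicate 2 or Ctrl replicate 3 was left out, and with all 4 groups of the experiment in the fit (edgeR, adjusted p = 0.0114).

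Sycp3 shares 660 bases of exon with Chpt1, a choline phosphotransferase gene on the opposite strand. The libraries were made with a strand-specific kit, but the strand setting of the counting is not given in the sources used here. Chpt1 was DE in none of the 10 comparisons of MCM2-2A with WT, with a log2 fold change of -0.00 in Ctrl and 0.23 in dPOLE4 at T0. Its levels at T0 were 6.85, 7.66 and 6.46 CPM in Ctrl and 6.62, 7.46 and 7.44 CPM in Ctrl MCM2-2A. The part of reads from Chpt1 in the rise of Sycp3 in MCM2-2A cells was not tested.

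Sycp1 encodes the transverse filament that links the lateral elements. Per kilobase it was lower than Sycp3 in all 20 groups, with means of 0.602 and 3.74 CPM per kilobase in Ctrl at T0. At T0 Sycp1 stood at 2.66, 2.21 and 1.55 CPM in Ctrl and 7.14, 5.43 and 6.38 CPM in Ctrl MCM2-2A (1.54 ± 0.19, adjusted p = 4.90e-05). In dPOLE4 cells it stood at 2.50, 2.83 and 2.25 CPM and, with MCM2-2A, at 6.73, 6.41 and 7.79 CPM (1.49 ± 0.16, adjusted p = 1.75e-05). All MCM2-2A libraries lay above all WT libraries. T12 gave 3.11, 2.29 and 3.75 CPM in Ctrl, 7.51, 8.16 and 6.29 CPM in Ctrl MCM2-2A (1.29 ± 0.19, adjusted p = 3.66e-04), 2.96, 3.30 and 2.66 CPM in dPOLE4 and 9.08, 9.53 and 13.8 CPM in dPOLE4 MCM2-2A (1.89 ± 0.17, adjusted p = 1.12e-07). T24 gave 3.43, 2.64 and 3.36 CPM in Ctrl, 6.24, 6.34 and 8.40 CPM in Ctrl MCM2-2A (1.16 ± 0.16, adjusted p = 1.87e-05), 4.35, 2.73 and 2.55 CPM in dPOLE4 and 10.1, 8.09 and 11.4 CPM in dPOLE4 MCM2-2A (1.62 ± 0.20, adjusted p = 8.36e-05). At both times the dPOLE4 MCM2-2A libraries were the highest as a group.

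The smallest rise of Sycp1 was that of Ctrl cells at T60, from 1.56, 1.70 and 2.26 CPM to 2.92, 3.61 and 3.35 CPM (0.85 ± 0.22, adjusted p = 0.00619), and DESeq2 did not call it. This call was also lost without Ctrl replicate 1 or 2, or without Ctrl MCM2-2A replicate 2 or 3. In dPOLE4 cells at T60 the levels were 1.95, 2.33 and 2.30 CPM and 5.84, 5.08 and 7.13 CPM (1.43 ± 0.18, adjusted p = 3.12e-05), with no overlap. At 96 h they were 4.37, 2.97 and 3.85 CPM in Ctrl and 14.5, 5.96 and 8.02 CPM in Ctrl MCM2-2A (1.32 ± 0.29, adjusted p = 0.00308). They were 6.59, 3.61 and 3.41 CPM in dPOLE4 and 22.1, 9.87 and 11.3 CPM in dPOLE4 MCM2-2A (1.72 ± 0.33, adjusted p = 0.00185). As for Sycp3, replicate 1 stood highest in each 96 h group, and the blocked values were 1.32 ± 0.18, adjusted p = 4.98e-05 and 1.67 ± 0.13, adjusted p = 1.68e-08. Without the block, the calls of Sycp1 at 96 h were lost when replicate 2 or replicate 3 of the WT group was left out, in Ctrl and in dPOLE4. With all groups in the fit the Ctrl call was lost too (edgeR, adjusted p = 0.0121). Ctrl MCM2-2A replicate 1 was the shallowest library of the series, at 7126100 counts.

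Of the genes of the piRNA pathway, Mael encodes Maelstrom, a protein of the nuage needed for transposon silencing in the male germline. Mael stood at 8.15, 8.34 and 10.2 CPM in Ctrl at T0 and at 23.1, 17.8 and 20.3 CPM in Ctrl MCM2-2A (1.15 ± 0.11, adjusted p = 7.73e-06). It stood at 7.61, 9.55 and 10.9 CPM in dPOLE4 and 21.4, 19.0 and 22.2 CPM in dPOLE4 MCM2-2A (1.17 ± 0.13, adjusted p = 2.14e-05). The means differed by 2.29 and 2.23 times, with no overlap of libraries. During RA the T12 levels were 8.37, 8.34 and 8.07 CPM in Ctrl, 13.9, 17.3 and 13.8 CPM in Ctrl MCM2-2A (0.89 ± 0.12, adjusted p = 1.98e-04), 10.6, 9.31 and 9.73 CPM in dPOLE4 and 19.3, 20.2 and 22.1 CPM in dPOLE4 MCM2-2A (1.08 ± 0.09, adjusted p = 4.93e-08). The T24 levels were 9.78, 10.6 and 10.5 CPM in Ctrl, 17.3, 17.2 and 19.5 CPM in Ctrl MCM2-2A (0.83 ± 0.09, adjusted p = 1.23e-06), 9.60, 8.62 and 10.8 CPM in dPOLE4 and 24.1, 19.9 and 22.8 CPM in dPOLE4 MCM2-2A (1.23 ± 0.11, adjusted p = 1.03e-05). WT and MCM2-2A were nearest to each other at T60.

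At T60 Mael was at 10.8, 12.01 and 12.9 CPM in Ctrl and 15.1, 15.1 and 16.1 CPM in Ctrl MCM2-2A, a log2 difference of 0.36 ± 0.10, adjusted p = 0.0112 that was not called. In dPOLE4 cells it was at 12.8, 12.5 and 11.7 CPM and 19.2, 17.2 and 22.2 CPM (0.66 ± 0.11, adjusted p = 3.10e-04). The 96 h libraries gave 11.3, 10.4 and 12.5 CPM in Ctrl, 21.9, 20.7 and 21.7 CPM in Ctrl MCM2-2A (0.95 ± 0.12, adjusted p = 5.78e-05), 11.7, 10.9 and 14.5 CPM in dPOLE4 and 27.0, 21.9 and 23.5 CPM in dPOLE4 MCM2-2A (0.99 ± 0.14, adjusted p = 2.22e-04). Each 96 h library with MCM2-2A was above each without it. The dPOLE4 call at T60 was lost without dPOLE4 MCM2-2A replicate 3.

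Ddx4, the mouse Vasa helicase and a marker of germ cells, showed smaller but steady differences. Its levels at T0 were 11.4, 14.0 and 15.9 CPM in Ctrl and 21.3, 18.0 and 22.5 CPM in Ctrl MCM2-2A (0.55 ± 0.12, adjusted p = 0.00252), which passed the p threshold but not the fold threshold. In dPOLE4 cells at T0 they were 14.9, 15.9 and 17.1 CPM and 26.9, 22.0 and 28.2 CPM (0.70 ± 0.10, adjusted p = 2.11e-04). No libraries overlapped between backgrounds. At T12 Ddx4 was at 11.1, 12.1 and 15.97 CPM in Ctrl, 19.3, 21.2 and 20.6 CPM in Ctrl MCM2-2A (0.68 ± 0.13, adjusted p = 0.00253), 14.7, 16.7 and 16.3 CPM in dPOLE4 and 24.0, 23.1 and 26.4 CPM in dPOLE4 MCM2-2A (0.64 ± 0.08, adjusted p = 7.13e-06). At T24 it was at 15.1, 16.5 and 15.6 CPM in Ctrl, 26.5, 28.2 and 27.7 CPM in Ctrl MCM2-2A (0.83 ± 0.07, adjusted p = 7.73e-08), 19.0, 18.4 and 16.2 CPM in dPOLE4 and 30.8, 28.6 and 30.7 CPM in dPOLE4 MCM2-2A (0.76 ± 0.09, adjusted p = 4.77e-05).

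All 4 kinds of cells had their highest Ddx4 mean of the RA series at T60. The T60 levels were 19.08, 19.5 and 20.5 CPM in Ctrl, 30.2, 30.6 and 33.8 CPM in Ctrl MCM2-2A (0.66 ± 0.08, adjusted p = 1.56e-05), 23.4, 22.5 and 24.8 CPM in dPOLE4 and 31.4, 33.7 and 42.4 CPM in dPOLE4 MCM2-2A (0.59 ± 0.11, adjusted p = 6.78e-04). After 96 h they were 13.6, 12.2 and 15.0 CPM in Ctrl, 25.4, 17.6 and 20.3 CPM in Ctrl MCM2-2A (0.65 ± 0.15, adjusted p = 0.00429), 15.97, 13.1 and 16.3 CPM in dPOLE4 and 30.3, 25.6 and 22.1 CPM in dPOLE4 MCM2-2A (0.81 ± 0.14, adjusted p = 0.00101). The log2 fold changes of Ddx4 all lay between 0.55 and 0.83, a narrower range than that of Sycp1, Sycp3 or Mael. Single libraries decided 3 of its calls. These were Ctrl at T12 (lost without Ctrl replicate 1 or Ctrl MCM2-2A replicate 2), dPOLE4 at T60 (without dPOLE4 replicate 2 or dPOLE4 MCM2-2A replicate 3) and Ctrl at 96 h (without any library but Ctrl MCM2-2A replicate 2).

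Asz1, a germ cell protein of the piRNA pathway at mitochondria, went the other way but was close to the detection limit, with 10 or more counts in 30 of the 60 libraries. At T24 it stood at 1.73, 1.32 and 1.15 CPM in Ctrl and 0.297, 0.321 and 0.159 CPM in Ctrl MCM2-2A (-2.32 ± 0.36, adjusted p = 5.14e-05). In dPOLE4 cells at T24 it stood at 1.46, 1.40 and 1.54 CPM and 0.520, 0.583 and 0.857 CPM (-1.11 ± 0.27, adjusted p = 0.00785). Every MCM2-2A library was lower than every WT library. At T12 it was at 0.883, 1.36 and 1.10 CPM in dPOLE4 and 0.272, 0.387 and 0.421 CPM in dPOLE4 MCM2-2A (-1.58 ± 0.34, adjusted p = 9.98e-04). At 96 h it was at 1.06, 0.896 and 1.05 CPM in Ctrl and 0.673, 0.186 and 0.157 CPM in Ctrl MCM2-2A (-1.86 ± 0.47, adjusted p = 0.00802). The filter needed 3 of the 6 libraries at its cutoff. All 3 WT libraries reached it in each of these comparisons, while of the MCM2-2A libraries all 3 did at T24 in dPOLE4, 1 did at 96 h in Ctrl and 0 did at T24 in Ctrl and at T12 in dPOLE4. Except at T24 in dPOLE4, Asz1 was thus tested through the group in which it was high. The fifth comparison in which it was tested was dPOLE4 at 96 h (-0.89 ± 0.32, adjusted p = 0.0478), not called. DESeq2 did not call it at 96 h in Ctrl or at T24 in dPOLE4. The first of these calls held only without Ctrl MCM2-2A replicate 1 and the second only without dPOLE4 MCM2-2A replicate 3, and the call at T12 was lost without dPOLE4 replicate 2.

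Stk31, a germ cell protein with a kinase-like and a Tudor domain, was lower in MCM2-2A cells. At T0 it stood at 18.2, 15.5 and 17.6 CPM in Ctrl and 10.2, 9.20 and 9.70 CPM in Ctrl MCM2-2A (-0.86 ± 0.10, adjusted p = 2.16e-05). The T12 levels were 21.2, 14.5 and 21.3 CPM and 11.6, 10.2 and 9.40 CPM (-0.85 ± 0.16, adjusted p = 0.00165), and the T24 levels 16.9, 14.8 and 17.6 CPM and 10.3, 10.7 and 10.5 CPM (-0.61 ± 0.09, adjusted p = 4.75e-05). At 96 h they were 11.4, 12.9 and 12.3 CPM and 8.61, 6.70 and 6.34 CPM (-0.75 ± 0.16, adjusted p = 0.00237). No library overlapped between Ctrl and Ctrl MCM2-2A at these times. The T24 call was lost without Ctrl replicate 3, and the 96 h call without Ctrl replicate 2 or 3 or Ctrl MCM2-2A replicate 3. At T60 the difference in Ctrl was -0.41 ± 0.12, adjusted p = 0.0119, not called. In dPOLE4 cells Stk31 fell at T12, from 21.6, 22.4 and 24.8 CPM to 12.3, 14.4 and 15.2 CPM (-0.70 ± 0.09, adjusted p = 7.52e-06). At the other times in dPOLE4 cells the log2 differences were -0.58 ± 0.12, adjusted p = 0.00203 at T0, -0.50 ± 0.13, adjusted p = 0.00876 at T24, -0.12 ± 0.12, adjusted p = 0.469 at T60 and -0.31 ± 0.16, adjusted p = 0.151 at 96 h, none of them called.

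Tex19.1, which protects germ cells and early embryos from retrotransposons, had the highest level per kilobase of these genes. It was DE at T24, with 95.7, 109 and 107 CPM in Ctrl and 62.5, 66.8 and 64.2 CPM in Ctrl MCM2-2A (-0.66 ± 0.06, adjusted p = 8.81e-08). At T60 it stood at 89.0, 76.5 and 92.2 CPM and 56.1, 44.0 and 50.8 CPM (-0.80 ± 0.09, adjusted p = 4.08e-06). The groups did not overlap. At the other times in Ctrl the log2 differences were 0.04 ± 0.06 at T0, -0.54 ± 0.09 at T12 and -0.34 ± 0.11 at 96 h, none called. In dPOLE4 cells the log2 differences lay between -0.35 (T24) and 0.33 (T0) with no call. Tex19.1 lies on chromosome 11, where genes as a whole were lower in MCM2-2A cells at every time, whether or not Tex19.1 was called. The median log2 fold change of the chromosome in Ctrl was -0.48 at T0, -0.51 at T12, -0.49 at T24, -0.55 at T60 and -0.51 at 96 h. In dPOLE4 cells it lay between -0.53 (T60) and -0.49 (T12). The part of the chromosome in the fall was not tested. The other genes lie on chromosomes whose medians in Ctrl cells at T0 were between -0.09 and 0.06. Within 5 Mb of each of them, the medians of the neighbouring genes then ran from -0.26 (Asz1) to 0.14 (Dazl). In the comparisons in which Asz1 was called, the median around it was -0.15 at T24 and -0.21 at 96 h in Ctrl. In dPOLE4 it was -0.26 at T12 and -0.25 at T24. The part of these neighbours in the fall of Asz1 was not tested. Tex19.2, a near copy of Tex19.1 with far fewer counts, was DE in Ctrl at T0 (0.76 ± 0.19, adjusted p = 0.00582) and in dPOLE4 at T0 (0.93 ± 0.18, adjusted p = 0.00159) and 96 h (0.83 ± 0.19, adjusted p = 0.00486), upwards each time.

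Dazl, an RNA-binding protein that sets the translation of germ cell mRNAs, was DE between the backgrounds in none of the 10 comparisons by edgeR or DESeq2. At T0 it stood at 10.3, 12.8 and 12.2 CPM in Ctrl, 12.2, 11.6 and 15.1 CPM in Ctrl MCM2-2A, 8.68, 13.2 and 12.1 CPM in dPOLE4 and 7.60, 10.3 and 17.8 CPM in dPOLE4 MCM2-2A. The log2 differences were 0.12 ± 0.12 in Ctrl and 0.12 ± 0.25 in dPOLE4 at T0, and lay between -0.27 and 0.24 over all times. The libraries of WT and MCM2-2A overlapped at T0 in Ctrl and in dPOLE4.

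Slc25a31 encodes the ADP/ATP carrier of sperm mitochondria. In dPOLE4 cells at T0 it stood at 1.74, 2.28 and 2.40 CPM and 3.80, 4.37 and 5.25 CPM with MCM2-2A (1.08 ± 0.19, adjusted p = 6.99e-04). At T24 the levels were 3.26, 3.30 and 3.21 CPM in Ctrl, 4.81, 4.73 and 5.71 CPM in Ctrl MCM2-2A (0.65 ± 0.15, adjusted p = 0.00175), 3.71, 3.23 and 4.97 CPM in dPOLE4 and 6.98, 5.63 and 6.93 CPM in dPOLE4 MCM2-2A (0.77 ± 0.18, adjusted p = 0.00485). The widest gap was that of dPOLE4 cells at 96 h, with 3.04, 2.58 and 2.60 CPM and 7.38, 7.65 and 6.29 CPM (1.41 ± 0.17, adjusted p = 9.10e-05). In these comparisons no WT library reached the level of any MCM2-2A library. Left-out libraries that ended a call were Ctrl MCM2-2A replicate 3 at T24, and at T24 in dPOLE4 replicates 1 and 2 of dPOLE4 and replicates 1 and 3 of dPOLE4 MCM2-2A. In Ctrl cells it was not called at T0 (0.45 ± 0.18, adjusted p = 0.0640), T12 (0.43 ± 0.22, adjusted p = 0.148), T60 (-0.44 ± 0.21, adjusted p = 0.105) or 96 h (0.62 ± 0.30, adjusted p = 0.126).

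Dppa3, also called Stella, binds UHRF1 and shields the egg and early embryo from DNA methylation, and it marks naive stem cells and primordial germ cells. It showed the largest fall of the 10 genes over these comparisons. At T0 Dppa3 stood at 19.9, 35.4 and 29.5 CPM in Ctrl and 7.14, 6.78 and 6.61 CPM in Ctrl MCM2-2A (-2.09 ± 0.18, adjusted p = 2.55e-06). In dPOLE4 cells it stood at 18.8, 33.1 and 28.8 CPM and 5.58, 6.20 and 6.94 CPM with MCM2-2A (-2.08 ± 0.18, adjusted p = 4.94e-06). The WT libraries varied, with replicate 1 lowest in Ctrl and in dPOLE4, yet the lowest WT library was far above the highest MCM2-2A library. At 96 h the levels were 34.0, 39.1 and 34.9 CPM in Ctrl, 6.86, 5.34 and 6.61 CPM in Ctrl MCM2-2A (-2.50 ± 0.13, adjusted p = 1.03e-07), 28.7, 27.6 and 29.9 CPM in dPOLE4 and 4.88, 6.65 and 5.03 CPM in dPOLE4 MCM2-2A (-2.35 ± 0.13, adjusted p = 1.54e-06).

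The gap in Dppa3 lasted through T12 and T24. T12 libraries had 12.7, 17.8 and 18.3 CPM in Ctrl, 2.75, 4.23 and 4.32 CPM in Ctrl MCM2-2A (-2.09 ± 0.20, adjusted p = 2.34e-05), 13.8, 19.4 and 15.5 CPM in dPOLE4 and 3.37, 3.87 and 3.16 CPM in dPOLE4 MCM2-2A (-2.22 ± 0.14, adjusted p = 1.60e-09). T24 libraries had 7.64, 9.64 and 8.53 CPM in Ctrl, 2.85, 2.65 and 1.19 CPM in Ctrl MCM2-2A (-1.85 ± 0.19, adjusted p = 5.96e-07), 7.07, 10.7 and 7.31 CPM in dPOLE4 and 1.86, 2.98 and 2.24 CPM in dPOLE4 MCM2-2A (-1.85 ± 0.22, adjusted p = 6.26e-05). At T60 all groups were low and the backgrounds were not called apart, with 1.26, 2.24 and 1.70 CPM in Ctrl, 1.15, 1.17 and 0.825 CPM in Ctrl MCM2-2A (-0.69 ± 0.30, adjusted p = 0.0762), 2.03, 2.24 and 2.59 CPM in dPOLE4 and 2.19, 2.12 and 2.39 CPM in dPOLE4 MCM2-2A (-0.05 ± 0.20, adjusted p = 0.856). For the genes within 5 Mb of Dppa3, on chromosome 6, the median in Ctrl at T0 was 0.07 on the log2 scale.

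Other genes of the same pathways were counted from lists. The shares of all features called in the same comparisons were 18.9% in Ctrl and 18.6% in dPOLE4 at T0, and 15.7% and 16.4% at 96 h. Of the piRNA pathway and germ granules, 5 rose and 3 fell of 15 tested in Ctrl at T0, 6 rose and 3 fell of 15 tested in dPOLE4 at T0, 3 rose and 3 fell of 15 tested in Ctrl at 96 h and 5 rose and 2 fell of 15 tested in dPOLE4 at 96 h. Tdrd1, a Tudor scaffold of the nuage, had the largest rise of the list at T0, from 1.32 ± 0.224 to 6.95 ± 0.224 CPM (SD, n = 3) in dPOLE4 cells at T0 (2.41 ± 0.17, adjusted p = 1.40e-06). Of the synaptonemal complex and meiotic recombination genes, 3 rose and 1 fell of 13 tested in Ctrl at T0, 4 rose and 0 fell of 14 tested in dPOLE4 at T0, 2 rose and 1 fell of 13 tested in Ctrl at 96 h and 2 rose and 0 fell of 13 tested in dPOLE4 at 96 h. Rec8, the meiotic cohesin subunit, rose from 5.31 ± 0.591 to 16.7 ± 0.375 CPM in Ctrl at T0 (1.61 ± 0.11, adjusted p = 5.36e-07), and Mei1, needed for meiotic breaks, from 0.469 ± 0.173 to 1.87 ± 0.166 CPM (1.95 ± 0.30, adjusted p = 2.81e-04). Hormad1, of the meiotic chromosome axis, fell (-0.76 ± 0.14, adjusted p = 7.36e-04). The median log2 fold change in Ctrl at T0 was 0.35 over the piRNA list and 0.24 over the synaptonemal list, beside -0.02 over all features. The lists thus held genes that moved with Sycp1 and Sycp3 and genes that moved against them.

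Of the list of germ cell regulators and other germline genes, 4 rose and 2 fell of 14 tested in Ctrl at T0, 3 rose and 2 fell of 14 tested in dPOLE4 at T0, 4 rose and 3 fell of 14 tested in Ctrl at 96 h and 3 rose and 3 fell of 14 tested in dPOLE4 at 96 h. Stra8, the RA-induced gatekeeper of meiosis, rose at T0 from 11.5 ± 3.92 to 29.0 ± 4.01 CPM (1.29 ± 0.18, adjusted p = 1.34e-04), and Taf7l, a germ cell subunit of TFIID, from 1.13 ± 0.255 to 4.67 ± 0.641 CPM (1.98 ± 0.22, adjusted p = 1.80e-05). Tuba3b, a testis tubulin, fell from 5.68 ± 0.0554 to 1.47 ± 0.301 CPM (-1.98 ± 0.17, adjusted p = 3.14e-06). The median of this list in Ctrl at T0 was 0.07. Among the regulators of methylation, the 11 genes of PRC1.6 and the 5 H3K9 methylation genes held no call in either treatment at T0. Of the DNA methylation enzymes and cofactors, 2 rose and 1 fell of 8 tested in Ctrl at T0 and 2 rose and 1 fell of 8 tested in dPOLE4. Of this list Tet2, an enzyme that oxidizes methylcytosine, fell at T0 (-0.62 ± 0.09, adjusted p = 1.10e-04). Dnmt3b was not DE at T0 and rose at T60 in Ctrl (0.75 ± 0.08, adjusted p = 1.75e-06) and in dPOLE4 (0.67 ± 0.07, adjusted p = 4.41e-06). The de novo enzyme gene Dnmt3a (1.48 ± 0.06, adjusted p = 1.39e-08) and Uhrf1 (0.70 ± 0.05, adjusted p = 6.51e-07), named here after their values were seen, were the 2 that rose at T0 in Ctrl.

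Markers of other cell types differed between the backgrounds for some types and not for others. At T0 the summed level of 7 markers of 2-cell-like cells was 7.72 to 24.5 CPM in Ctrl and 22.9 to 45.7 CPM in Ctrl MCM2-2A, ranges that overlap, with 3 of the 7 below 1 CPM in both groups, and 3 rose and 0 fell of 6 tested. The 5 primordial germ cell markers summed to 91.2 to 113 CPM and 108 to 119.8 CPM, and 0 rose and 0 fell of 5 tested. The 4 primitive endoderm markers summed to 5.33 to 16.02 CPM and 17.3 to 25.6 CPM, and 2 rose and 0 fell of 4 tested. The 3 trophoblast markers summed to 10.7 to 15.8 CPM and 9.50 to 11.3 CPM, and 0 rose and 1 fell of 2 tested. The 5 fibroblast markers summed to 46.3 to 59.2 CPM and 32.0 to 44.8 CPM, and 1 rose and 3 fell of 4 tested.

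At T60 the 2-cell-like sum was lower in Ctrl MCM2-2A, at 137 to 184 CPM against 214 to 294 CPM in Ctrl, the opposite order to T0, and 0 rose and 4 fell of 6 tested. Primitive endoderm markers summed to 300.01 to 332 CPM against 169 to 212 CPM, and 2 rose and 0 fell of 4 tested. Fibroblast markers summed to 169 to 184 CPM against 359 to 505 CPM, and 1 rose and 4 fell of 5 tested. Primordial germ cell markers summed to 38.2 to 46.0 CPM against 41.04 to 51.0 CPM, and trophoblast markers to 14.6 to 16.7 CPM against 4.84 to 8.39 CPM. The part of these cell types in the germline gene differences was not tested.

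The second comparison asked what depletion of POLE4 did in each background. In WT cells edgeR called none of the 10 genes DE at any of the 5 times, and neither did DESeq2. Of all features, 0.0% were called at T0, 0.0% at T12, 0.0% at T24, 0.193% at T60 and 0.0% at 96 h. At an unadjusted p below 0.05 stood 1, 5, 2, 5 and 1 of the 10 genes at these times, beside 11.6%, 6.42%, 7.6%, 14.3% and 12.3% of all features. With the replicate number as a block, whose libraries deviated together at T0 and 96 h, 0.0337% of features were called at T0 and 0.808% at 96 h, and again none of the 10 genes. Sycp3 at T0 differed by 0.10 ± 0.16, Sycp1 by 0.22 ± 0.22, Mael by 0.05 ± 0.14 and Ddx4 by 0.19 ± 0.12 on the log2 scale. Log2 fold changes above 0 were found for 7, 9, 8, 10 and 7 of the 10 genes at T0, T12, T24, T60 and 96 h. The medians of the genes were 0.07, 0.27, 0.18, 0.35 and 0.14 in that order, and that of all features at T60 was 0.00. The WT differences of all genes but Asz1 lay between -0.36 and 0.62, both of Sycp3.

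In MCM2-2A cells POLE4 depletion raised 1 of 9 genes tested at T12 (background 0.404%, of which 0.216% higher) and 4 of 9 at T60 (background 2.25%, of which 1.07% higher). None was called at T0 (background 0.0715%), T24 (1.02%) or 96 h (0.304%) by edgeR without the replicate block. At these times 5, 6 and 4 genes had an unadjusted p below 0.05 (beside 13.5%, 21.1% and 11.5% of all features), and DESeq2 called none either. The median log2 fold change of the genes tested at T60 was 0.81, and that of all features 0.00. None fell at any time.

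Tex19.1 gave both kinds of call. At T12 it stood at 67.7, 71.3 and 85.7 CPM in Ctrl MCM2-2A and 112, 121 and 116 CPM in dPOLE4 MCM2-2A (0.63 ± 0.08, adjusted p = 0.00195). At T60 it stood at 56.1, 44.0 and 50.8 CPM and 101, 96.3 and 87.3 CPM (0.93 ± 0.09, adjusted p = 4.99e-04). The groups did not overlap at either time, as was the case, in the same direction, for 13.2% of all features at T12 and 16.2% at T60. The shares of all features come from counts scaled to library totals without TMM. At T0 (0.53 ± 0.08, adjusted p = 0.0208), T24 (0.55 ± 0.08, adjusted p = 0.00120) and 96 h (0.58 ± 0.11, adjusted p = 0.0390) the differences were somewhat smaller and were not called. Relative to WT Ctrl, where Tex19.1 was at 89.0, 76.5 and 92.2 CPM at T60, 1 of the 3 dPOLE4 MCM2-2A libraries lay within the WT values and the others above them, and every Ctrl MCM2-2A library lay below them.

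Slc25a31, Stk31 and Sycp1 rose with Tex19.1 at T60. Slc25a31 went from 2.82, 2.83 and 3.51 CPM in Ctrl MCM2-2A to 5.63, 5.13 and 6.76 CPM in dPOLE4 MCM2-2A (0.96 ± 0.16, adjusted p = 0.00446). Stk31 went from 6.99, 7.50 and 7.43 CPM to 11.8, 10.3 and 14.3 CPM (0.74 ± 0.13, adjusted p = 0.00537), and Sycp1 from 2.92, 3.61 and 3.35 CPM to 5.84, 5.08 and 7.13 CPM (0.87 ± 0.17, adjusted p = 0.00809). The libraries of the groups were apart for all 3 genes, against the 16.2% of all features given above. Dppa3 (1.08 ± 0.22, adjusted p = 0.0116) and Sycp3 (0.81 ± 0.16, adjusted p = 0.0103) had differences of like size that missed the p threshold. The count of 4 was sensitive to single libraries. It was 1 without any 1 of the 3 Ctrl MCM2-2A libraries or without dPOLE4 MCM2-2A replicate 1, and 2 without dPOLE4 MCM2-2A replicate 2. Tex19.1 stayed DE in all 6 of these fits and Sycp1 in none. At T12 the call of Tex19.1 was lost without Ctrl MCM2-2A replicate 1 or without dPOLE4 MCM2-2A replicate 2.

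At 96 h libraries with the same replicate number deviated together from their group means (mean r 0.274), though the labels do not say what a number marks. There the fit with the replicate number as a block called 4 genes in MCM2-2A cells, against 1.76% of all features. They were Tex19.1 (0.59 ± 0.06, adjusted p = 6.06e-08), Sycp1 (0.60 ± 0.11, adjusted p = 5.27e-04), Slc25a31 (0.70 ± 0.17, adjusted p = 0.00741) and Stk31 (0.59 ± 0.13, adjusted p = 0.00207). These 4 are the genes called at T60. Their levels at 96 h were 130.4, 111 and 97.9 CPM of Tex19.1 in Ctrl MCM2-2A and 169, 168 and 170.0 CPM in dPOLE4 MCM2-2A. Slc25a31 stood at 7.00, 3.85 and 3.15 CPM and 7.38, 7.65 and 6.29 CPM, and Stk31 at 8.61, 6.70 and 6.34 CPM and 11.5, 11.3 and 9.22 CPM. Within each replicate number the dPOLE4 MCM2-2A library was higher for Tex19.1, Sycp1, Slc25a31 and Stk31. At T0, where libraries of the same number also deviated together, the blocked fit called no gene, with Tex19.1 at 0.53 ± 0.06, adjusted p = 1.09e-05, under the fold threshold. Without Ctrl MCM2-2A replicate 1 the fit without the block called 1 gene at 96 h.

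Markers of other cell types also differed between Ctrl MCM2-2A and dPOLE4 MCM2-2A. At T60 the 2-cell-like sum was 137 to 184 CPM in Ctrl MCM2-2A and 198 to 259 CPM in dPOLE4 MCM2-2A, and 2 rose and 0 fell of 6 tested. The primordial germ cell sum was 38.2 to 46.0 and 52.6 to 57.1 CPM, and 1 rose and 0 fell of 5 tested. The fibroblast sum was 169 to 184 and 68.8 to 84.5 CPM, and 0 rose and 3 fell of 5 tested. The primitive endoderm sum was 300.01 to 332 and 231 to 259 CPM, and the trophoblast sum 14.6 to 16.7 and 16.8 to 20.7 CPM. At 96 h the 2-cell-like sum was 34.1 to 53.6 CPM and 98.6 to 130.05 CPM, and 1 rose and 0 fell of 6 tested. The part of these cell types in the rise of Tex19.1, Slc25a31, Stk31 and Sycp1 was not tested.

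Whether the depletion effect differed between the backgrounds was tested as an interaction of all 4 groups of a time. EdgeR called none of the 10 genes at any time, against 0.00526% of features at T0, 0.0159% at T12, 0.0351% at T24, 0.1% at T60 and 0.0% at 96 h. The lowest adjusted p was that of Tex19.1 at T60, where the effect was larger in MCM2-2A cells by 0.60 ± 0.12, adjusted p = 0.0264, and DESeq2 called this gene, as did edgeR without a filter on low counts. Without dPOLE4 MCM2-2A T60 replicate 3, edgeR called 1 gene at T60. An unadjusted p below 0.05 was found for 2, 2, 3, 1 and 2 genes at the 5 times, beside 5.39%, 7.4%, 8.81%, 10.1% and 3.7% of all features. The T60 differences were 0.51 ± 0.25 for Slc25a31, 0.30 ± 0.17 for Stk31 and 0.59 ± 0.28 for Sycp1, so that a larger depletion effect in MCM2-2A cells was not shown for these genes.

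**Figure D3:**
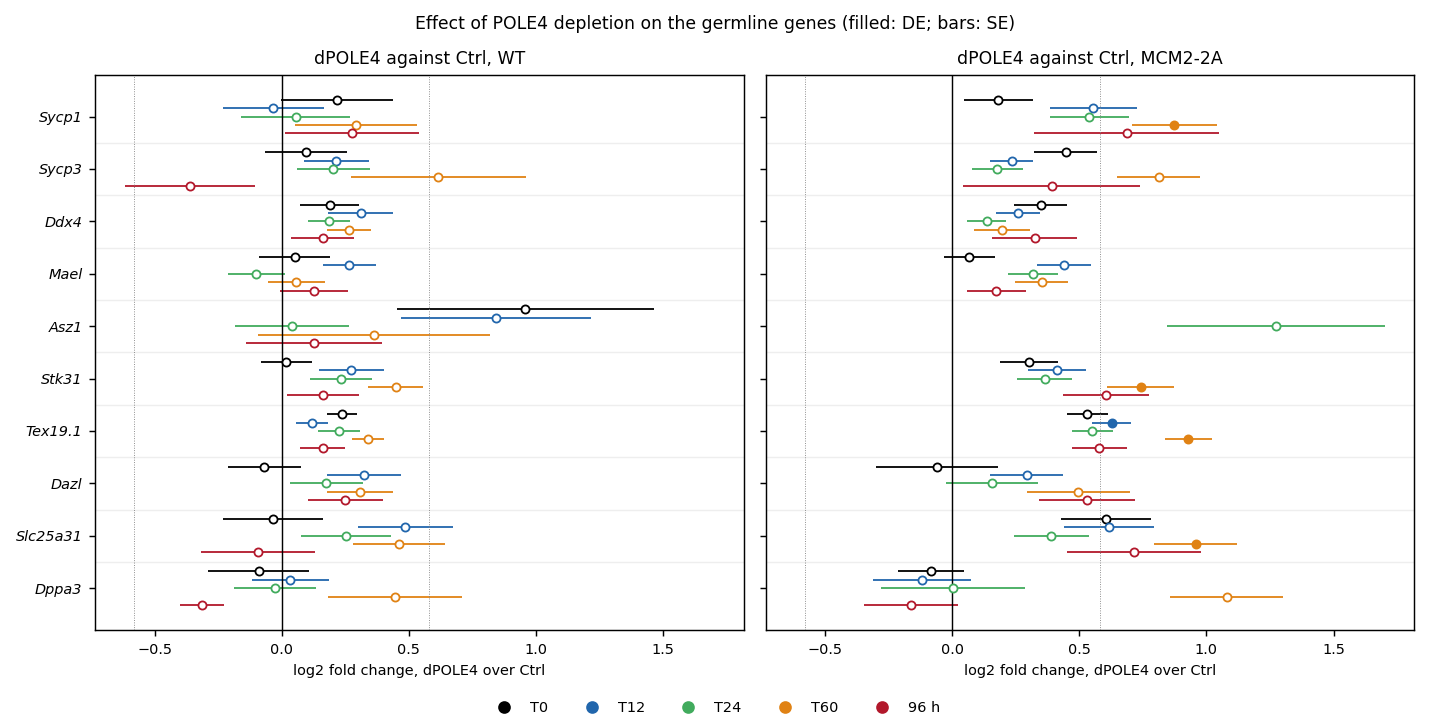
Log2 fold change of each gene between dPOLE4 and Ctrl, in WT cells (left) and MCM2-2A cells (right), at 5 times. Bars are SE, filled points are DE and dotted lines mark the fold change threshold of 0.58. The only filled points are those of Tex19.1 at T12 and T60 and of Sycp1, Stk31 and Slc25a31 at T60, all in MCM2-2A cells.

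The third comparison followed the genes through RA, which drives the cells out of pluripotency. The comparisons of a kind of cell share its T0 libraries. The stem cell markers, which summed to 2612 to 2713 CPM in Ctrl at T0, summed to 134 to 162 CPM in Ctrl at T60. They summed to 139 to 166 CPM in dPOLE4, 307 to 413 CPM in Ctrl MCM2-2A and 418 to 547 CPM in dPOLE4 MCM2-2A at T60. Dppa3 and Sycp3 fell in all 4 kinds of cells by T60, Dazl rose in all 4 by T24, Mael was DE in no RA comparison, and the other genes changed in some kinds only.

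At T12, 3 of 9 genes were DE in Ctrl (background 11.3%), 4 of 10 in dPOLE4 (11.7%), 1 of 9 in Ctrl MCM2-2A (8.65%) and 1 of 9 in dPOLE4 MCM2-2A (7.79%). At T24 the numbers were 3 of 10 (21.8%), 3 of 10 (19.2%), 4 of 9 (23.9%) and 2 of 10 (19.6%). The Ctrl number at T24 includes Asz1, which was tested there through the group in which it was high. Without Asz1 it was 2 of 9. At T60 they were 4 of 9 (50.6%), 4 of 10 (48.1%), 5 of 9 (47.5%) and 2 of 9 (42.2%). The share of the genes that changed at T60 was close to or below the background. The T12 counts were the least stable to single libraries. In Ctrl the count at T12 went to 0 without Ctrl T0 replicate 2 or without Ctrl T0 replicate 3, and to 1 without Ctrl T0 replicate 1 or without Ctrl T12 replicate 3. In dPOLE4 it went to 2 without dPOLE4 T0 replicate 2 or 3 or without dPOLE4 T12 replicate 3, and DESeq2 gave 2. In Ctrl MCM2-2A it went to 0 without any 1 of the T0 libraries or T12 replicate 1. In dPOLE4 MCM2-2A it was 2 without T0 replicate 3 and 0 without T12 replicate 3 at T12. There the T24 count was 4 without T24 replicate 2 and 1 without T0 replicate 1, T24 replicate 1 or T24 replicate 3, and the T60 count was 4 without T0 replicate 3.

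Dppa3 fell at every time in every kind of cell, least firmly at T12. In Ctrl the log2 fold change was -0.83 ± 0.19 at T12, -1.73 ± 0.16 at T24 and -4.08 ± 0.25, adjusted p = 1.00e-09 at T60, when the mean had gone from 28.3 ± 7.79 to 1.73 ± 0.491 CPM (SD, n = 3). In dPOLE4 it was -0.72 ± 0.17, -1.67 ± 0.20 and -3.56 ± 0.21, adjusted p = 1.47e-09 at the same times. MCM2-2A cells began from a lower level, and their log2 fold changes were -0.81 ± 0.17, -1.52 ± 0.21 and -2.66 ± 0.18, adjusted p = 2.51e-08 in Ctrl MCM2-2A and -0.86 ± 0.15, -1.47 ± 0.19 and -1.52 ± 0.17, adjusted p = 6.88e-06 in dPOLE4 MCM2-2A. No library of T60 reached the level of any T0 library in any kind of cell. Groups lay apart in this direction for 33.0% of all features in Ctrl and 32.6% in dPOLE4. The shares were 30.5% in Ctrl MCM2-2A and 27.4% in dPOLE4 MCM2-2A, from counts scaled to library totals without TMM. The call at T12 was not made by DESeq2 in Ctrl or dPOLE4. It was lost in Ctrl without T0 replicate 2, T0 replicate 3 or T12 replicate 1, and in dPOLE4 without T0 replicate 2, T0 replicate 3, T12 replicate 1 or T12 replicate 3. In Ctrl MCM2-2A it was lost without any 1 of the 3 T0 libraries or T12 replicate 1, and in dPOLE4 MCM2-2A without T12 replicate 3.

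Sycp3 was called higher early in 3 of the 4 kinds of cells and lower at T60 in all 4. At T12 it rose in Ctrl (0.71 ± 0.16, adjusted p = 0.00542) and dPOLE4 (0.81 ± 0.13, adjusted p = 2.20e-04), and its differences in Ctrl MCM2-2A (0.49 ± 0.09, adjusted p = 0.00238) and dPOLE4 MCM2-2A (0.26 ± 0.12, adjusted p = 0.127) were not called. Chpt1 on the opposite strand rose at T12 as well in Ctrl (0.72 ± 0.13, adjusted p = 0.00138), dPOLE4 (1.13 ± 0.11, adjusted p = 4.44e-06) and dPOLE4 MCM2-2A (0.70 ± 0.12, adjusted p = 0.00184). Its part in the T12 rise of Sycp3 was not tested. In Ctrl MCM2-2A Sycp3 was called higher at T24 (0.60 ± 0.09, adjusted p = 1.01e-04), and not without T0 replicate 2, T24 replicate 1 or T24 replicate 2, nor without a filter on low counts, when the log2 fold change was just under the threshold. The T12 call in Ctrl was lost without any 1 of the 3 T0 libraries or T12 replicate 3. By T60 Sycp3 fell in Ctrl (-2.44 ± 0.28, adjusted p = 1.28e-06), dPOLE4 (-1.95 ± 0.20, adjusted p = 4.47e-07), Ctrl MCM2-2A (-1.85 ± 0.11, adjusted p = 1.18e-08) and dPOLE4 MCM2-2A (-1.51 ± 0.16, adjusted p = 5.13e-06). Chpt1 then differed from T0 by 0.31 in Ctrl, 0.51 in dPOLE4, 0.43 in Ctrl MCM2-2A and 0.57 in dPOLE4 MCM2-2A, none of them called. Sycp1 fell by T60 in Ctrl MCM2-2A alone (-0.92 ± 0.15, adjusted p = 1.14e-04), and its other T60 values were -0.24 ± 0.27 in Ctrl, -0.19 ± 0.19 in dPOLE4 and -0.25 ± 0.16 in dPOLE4 MCM2-2A.

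Dazl reached its highest mean of the RA series at T24 in all 4 kinds of cells. Its levels then were 27.9, 25.0 and 32.4 CPM in Ctrl (1.26 ± 0.10, adjusted p = 1.60e-07) and 34.5, 24.9 and 37.4 CPM in dPOLE4 (1.50 ± 0.17, adjusted p = 1.62e-05). They were 23.8, 19.3 and 28.9 CPM in Ctrl MCM2-2A (0.88 ± 0.14, adjusted p = 1.82e-04) and 29.6, 17.3 and 31.0 CPM in dPOLE4 MCM2-2A (1.06 ± 0.26, adjusted p = 0.00642). T0 and T24 libraries did not overlap in Ctrl, dPOLE4 and Ctrl MCM2-2A, and in dPOLE4 MCM2-2A replicate 2 of T24 was below replicate 3 of T0. All T24 libraries lay above all T0 libraries for 40.1% of all features in Ctrl, 33.5% in dPOLE4 and 38.4% in Ctrl MCM2-2A. These shares come from counts scaled without TMM. DESeq2 did not call the rise in dPOLE4 MCM2-2A, and it was lost without T0 replicate 1 or 2 or T24 replicate 1 or 3. At T12 Dazl stood at 16.6, 15.9 and 25.4 CPM in Ctrl (0.70 ± 0.17, adjusted p = 0.00657) and 24.5, 22.5 and 24.6 CPM in dPOLE4 (1.07 ± 0.12, adjusted p = 1.68e-05). The Ctrl call at T12 was lost without any 1 of the T0 libraries or T12 replicate 3, and with all groups in the fit. At T60 it stood at 21.5, 23.5 and 16.8 CPM in dPOLE4 (0.85 ± 0.14, adjusted p = 8.18e-05) and was not called in the other kinds, in which the log2 differences were 0.50 (Ctrl), 0.14 (Ctrl MCM2-2A) and 0.68 (dPOLE4 MCM2-2A).

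Slc25a31 rose by T60 in WT cells, to 5.04, 2.96 and 3.87 CPM in Ctrl (0.89 ± 0.22, adjusted p = 0.00203) and 5.56, 5.83 and 5.30 CPM in dPOLE4 (1.36 ± 0.16, adjusted p = 3.17e-06). In Ctrl it started from 1.98, 2.27 and 2.25 CPM. In MCM2-2A cells it differed by 0.01 ± 0.18 in Ctrl MCM2-2A and 0.33 ± 0.17 in dPOLE4 MCM2-2A at T60, with no call. It also rose at T12 in dPOLE4, to 2.90, 3.74 and 3.76 CPM (0.70 ± 0.19, adjusted p = 0.00955), and at T24 in dPOLE4 (0.86 ± 0.21, adjusted p = 0.00563) and Ctrl MCM2-2A (0.76 ± 0.17, adjusted p = 0.00196), where Ctrl MCM2-2A had stood at 3.55, 2.64 and 2.94 CPM at T0. The calls at T12 and T24 in dPOLE4 each held in 1 of 6 fits that left out a library, those without dPOLE4 T12 replicate 1 and without dPOLE4 T24 replicate 2. The T60 call in Ctrl was lost without Ctrl T60 replicate 1, and the T24 call in Ctrl MCM2-2A without T0 replicate 3. DESeq2 did not call the rise at T60 in Ctrl (adjusted p = 0.0115) or that at T12 in dPOLE4 (adjusted p = 0.0348).

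Tex19.1, Stk31, Ddx4 and Asz1 changed in 1 kind of cell each, and Mael was DE in no RA comparison. Tex19.1 fell by T60 in Ctrl MCM2-2A, from 103, 88.0 and 102 CPM (-0.94 ± 0.08, adjusted p = 4.41e-07), and was not called in Ctrl (-0.11 ± 0.07), dPOLE4 (-0.03 ± 0.06) or dPOLE4 MCM2-2A (-0.57 ± 0.09). Stk31 fell by T60 in Ctrl, to 10.1, 9.32 and 9.24 CPM (-0.84 ± 0.11, adjusted p = 6.84e-06). Ddx4 rose by T60 in Ctrl MCM2-2A (0.62 ± 0.08, adjusted p = 2.18e-05), with log2 differences of 0.51 in Ctrl, 0.55 in dPOLE4 and 0.44 in dPOLE4 MCM2-2A that were not called. The Ddx4 call was lost without Ctrl MCM2-2A T0 replicate 2. Asz1 rose at T24 in Ctrl, from 0.340, 0.170 and 0.551 CPM (1.95 ± 0.36, adjusted p = 3.82e-04). There 1 of the T0 libraries and all 3 of the T24 libraries reached the cutoff of the filter.

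**Figure D4:**
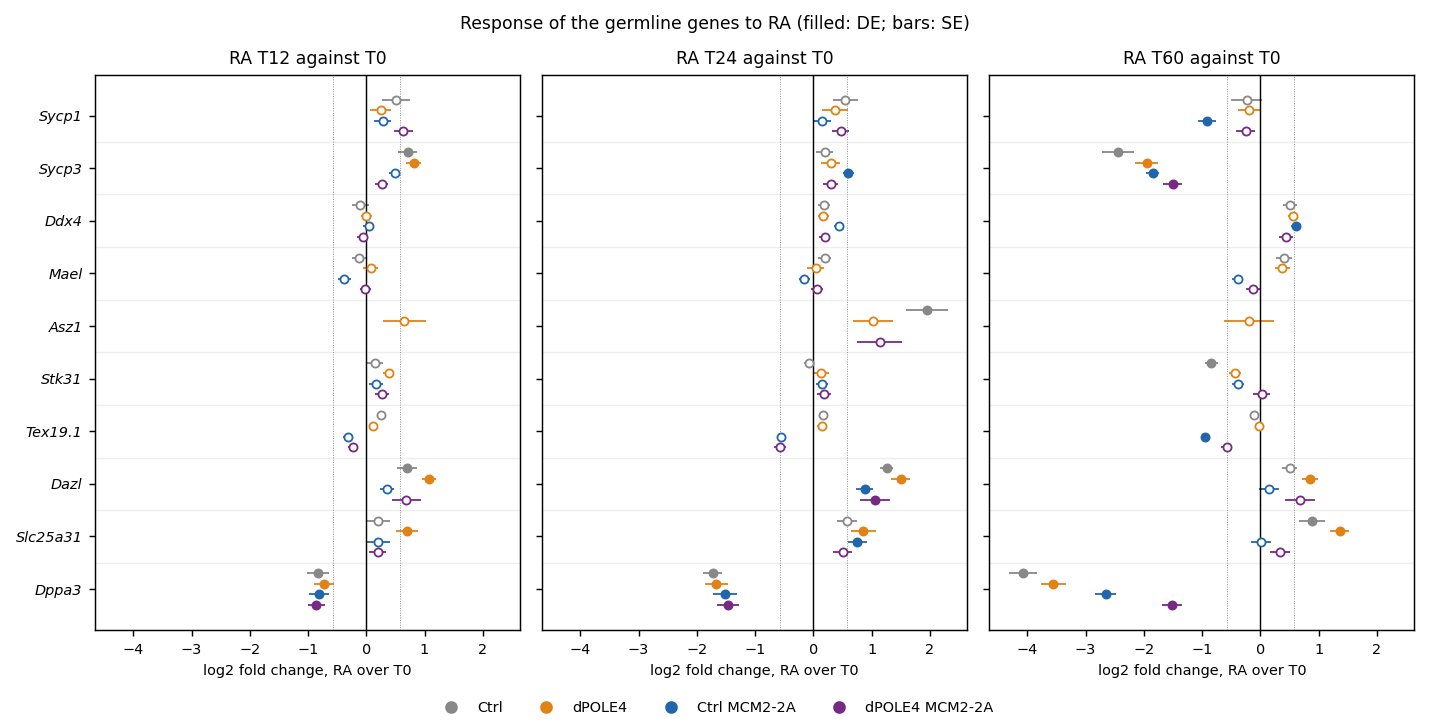
Log2 fold change of each gene between RA and T0 at T12, T24 and T60 in 4 kinds of cells. Bars are SE, filled points are DE and dotted lines mark the fold change threshold of 0.58. Dppa3 lies left of the threshold in every panel, and at T60 its points run from -4.08 in Ctrl to -1.52 in dPOLE4 MCM2-2A.

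The RA response at T60 was compared between the backgrounds as an interaction of T0 and T60 libraries. In Ctrl cells 2 of 9 genes differed (background 9.1%), and in dPOLE4 cells 2 of 10 (background 8.22%). In Ctrl cells the difference of the response, MCM2-2A minus WT, was -0.87 ± 0.11, adjusted p = 2.45e-05 for Tex19.1 and -0.82 ± 0.16, adjusted p = 0.00117 for Mael. The Mael responses themselves were 0.40 ± 0.13 in WT and -0.39 ± 0.09 in MCM2-2A, neither of them DE. For chromosome 11, that of Tex19.1, the median log2 fold change between the backgrounds in Ctrl was -0.48 at T0 and -0.55 at T60. The part of the chromosome in the Tex19.1 difference was not tested. In dPOLE4 cells Dppa3 fell less in MCM2-2A, the difference being 2.02 ± 0.30, adjusted p = 1.22e-04, and Slc25a31 rose less (-1.04 ± 0.23, adjusted p = 0.00443). The call of Slc25a31 was lost without dPOLE4 T0 replicate 1, any 1 of the 3 dPOLE4 T60 libraries, dPOLE4 MCM2-2A T0 replicate 3, or dPOLE4 MCM2-2A T60 replicate 1 or 2. That of Dppa3 was kept whichever of the 12 libraries was left out. In Ctrl cells the Dppa3 difference was 1.39 ± 0.38, adjusted p = 0.0122 and was not called.

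At T60, 50.6% of all features were called in Ctrl (26.9% higher and 23.7% lower) and 47.5% in Ctrl MCM2-2A (26.3% higher and 21.2% lower), and the counts of the lists of related genes stand beside these shares. Of the piRNA list, 3 rose and 2 fell of 15 tested in Ctrl and 3 rose and 6 fell of 15 tested in Ctrl MCM2-2A at T60. In Ctrl MCM2-2A Tdrd7 rose (2.74 ± 0.15), while Piwil1 (-2.46 ± 0.36) and Gtsf1 (-2.21 ± 0.29) fell. Of the synaptonemal and recombination list, 2 rose and 6 fell of 11 tested in Ctrl and 2 rose and 9 fell of 13 tested in Ctrl MCM2-2A. In Ctrl Rec8 rose by 4.52 ± 0.09 on the log2 scale, while Hormad1 (-2.80 ± 0.19) and Smc1b, a meiotic cohesin subunit (-1.56 ± 0.14), fell. Stra8 rose from 11.5 to 267 CPM in Ctrl (4.52 ± 0.14, adjusted p = 8.99e-13). Of the DNA methylation enzymes and cofactors, 1 rose and 4 fell of 8 tested in Ctrl, with Tet1 at -3.64 ± 0.09, Dnmt3b at -2.28 ± 0.07 and Tet3 at 2.28 ± 0.08. Among PRC1.6 genes, 3 rose and 6 fell of 11 tested in Ctrl, with Yaf2, a partner of RING1 proteins, at 2.06 ± 0.12, Pcgf6, a subunit that defines the complex, at -1.03 ± 0.07 and L3mbtl2 at -1.20 ± 0.06. Of the H3K9 methylation genes, 0 rose and 2 fell of 5 tested in Ctrl, with Setdb1 at -0.91 ± 0.06 and Trim28 at -1.62 ± 0.08.

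Over the 16 groups of the 24 h and RA experiment, the genes fell into different patterns. Sycp3 ranged from 0.901 CPM (Ctrl, T60) to 28.1 CPM (dPOLE4 MCM2-2A, T24), a ratio of 31.2. Dppa3 ranged from 1.05 CPM (Ctrl MCM2-2A, T60) to 28.3 CPM (Ctrl, T0), a ratio of 27.0. Dazl, Ddx4, Mael and Tex19.1 varied by less than 3 times, with ratios of 2.84, 2.74, 2.69 and 2.74. Mean log2 CPM of Sycp1 and Sycp3 correlated across the 16 groups with a Pearson r of 0.90, Ddx4 and Mael with 0.85, and Ddx4 and Dppa3 with -0.84. These values describe group means that share libraries and time points, and carry no test.

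Among 13241 genes with 10 or more counts in each of the 48 libraries, the 3 genes most like Mael over the 16 groups were Mov10l1 (Pearson r = 0.98), Cox14 and Tex15 (r = 0.96). Mov10l1 is a helicase of the piRNA pathway and Tex15 a germ cell gene. Mov10l1 also rose in MCM2-2A cells at T0 in Ctrl (log2 fold change 1.30 ± 0.10). It was picked for following Mael over groups that include these, so that its rise is no independent support. The genes most like Ddx4 were Cstb, Hdac10 and Ercc5, and those most like Sycp1 were Zfp706, Sult4a1 and 4930447C04Rik. Of the genes most like Mael, Ddx4 and Sycp1, Mov10l1, Cox14, Hdac10, Zfp706 and Sult4a1 lie on chromosome 15. A difference of that whole chromosome between the backgrounds was not tested. Stk31 was closest to Scrn1, Slc25a35 and Prorsd1, and Slc25a31 to Clip4, Aga and Coq9. For Tex19.1 the closest genes, Tmem41b, Rnf149 and Ndufaf7, had r between 0.84 and 0.85.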

How the data were processed

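The deposited files are 2 tables of counts per gene and per repeat subfamily, 1 for the 48 libraries of T0 and RA and 1 for the 12 libraries of the 96 h experiment. The authors prepared rRNA-depleted, strand-specific libraries, trimmed reads with cutadapt (version 4.2 in the submitters' processing notes), aligned them to mm10 with STAR and counted them with TEcount against GENCODE M25. Reads with several alignments were kept, and the strand setting of TEcount is not given in the sources used here. No normalization had been applied. Groups follow the sample titles. Each table held 55487 genes and 1146 repeat subfamilies, and 55141 genes had a symbol in GENCODE M21, the source of the positions.

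DE was tested with edgeR 4.0.16 (R 4.3.3) by the quasi-likelihood F test on the 2 groups of a comparison, or on all 4 for an interaction, in 39 comparisons. Features were kept by filterByExpr (minimum count 10, minimum total 15) and scaled by TMM over genes and repeats, and p-values were adjusted by Benjamini-Hochberg over all features. The SE is the size of the log2 fold change divided by the root of F. The thresholds follow the study's methods. Alternatives were DESeq2 1.42.0, its size factors, no filter, no fold change threshold, all groups in the fit, the replicate number as a block, and each library left out. The edgeR steps were tested on simulated data. Levels for correlations were log2 CPM with a prior count of 2. Total counts per library limit the precision of the lowest genes, Asz1 above all.

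The 10 genes, the lists and the tests were chosen with earlier results of these data known. All 10 were described. Of each list at most 4 genes were named by rule, the DE genes with the largest change at T0, 96 h or T60, and Dnmt3a and Uhrf1 were added after their values were seen. Likeness took the 3 genes of highest Pearson r over the 16 groups, among genes with 10 or more counts in all 48 libraries.

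The labels number replicates in every group and do not say what a number marks. Deviations from the group means of same-numbered libraries correlated above 0.1 in every pair in 6 of 32 comparisons (both depletion comparisons at T0 and at 96 h, and both background comparisons at 96 h, mean r 0.169 to 0.274). Pairing in these 6 was inferred from the data alone. The main fits used no block in any comparison, and the fit with the replicate number as a block was an alternative.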

Additional observations from a re-analysis of the deposited data

Results flagged for a closer look

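The response to RA at T60 differed between the backgrounds, by the interaction test of edgeR, for 4 of the genes. In Ctrl cells the difference, MCM2-2A minus WT, was -0.87 on the log2 scale for Tex19.1, which lies on chromosome 11, and -0.82 for Mael. In dPOLE4 cells it was 2.02 for Dppa3, whose level in MCM2-2A cells was already lower at T0, and -1.04 for Slc25a31. The calls of Tex19.1, Mael and Dppa3 were kept in all 12 fits that left out 1 library and that of Slc25a31 in 5 of 12. It was lost without dPOLE4 T0 replicate 1, dPOLE4 T60 replicates 1, 2 or 3, dPOLE4 MCM2-2A T0 replicate 3 or dPOLE4 MCM2-2A T60 replicates 1 or 2. What lies behind these differences was not tested. With 3 libraries a group, no group was examined for single outlying libraries.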

How the results depend on the processing

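None of the 106 calls of single genes changed direction under the alternatives run. Of these calls 98 were kept by DESeq2, 106 with its size factors, 102 with all groups in the fit, 105 without a filter on low counts and 105 with the replicate block. Leaving out 1 library kept 556 of 660. Counts of DE genes moved by over 1.5 times in these cases, for which the cause was not tested. With DESeq2 the count went from 4 to 2 (RA T12, dPOLE4), from 1 to 2 (RA T12, dPOLE4 MCM2-2A), from 2 to 1 (RA T24, dPOLE4 MCM2-2A) and from 0 to 1 (interaction of depletion and background, T60). Without a filter it went from 0 to 2 (depletion in MCM2-2A, 96 h), from 1 to 3 (RA T12, dPOLE4 MCM2-2A) and from 0 to 1 (the interaction at T60). With all groups in the fit it went from 1 to 2 (RA T12, dPOLE4 MCM2-2A). Without the fold change threshold, which can only add calls, it went from 0 to 1 (depletion in MCM2-2A, T24), from 1 to 2 (RA T12, Ctrl MCM2-2A) and from 2 to 4 (RA T60, dPOLE4 MCM2-2A).

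With the replicate block the count went from 0 to 4 for depletion in MCM2-2A at 96 h, where pairing by number was inferred from the data alone. It went from 1 to 0 for depletion in MCM2-2A at T12 and from 1 to 3 for RA T12 in dPOLE4 MCM2-2A. In these the libraries share only a number (mean r -0.128 to 0.179 in the 26 such comparisons). The block moved no other count by over 1.5 times.

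With 1 library left out the count lay between 2 and 6 (7 with all libraries) for MCM2-2A in Ctrl at 96 h and between 2 and 4 (4 with all libraries) for MCM2-2A in dPOLE4 at T60. For depletion in MCM2-2A it lay between 0 and 1 at T12, T24 and 96 h and between 1 and 3 at T60. For RA at T12 it lay between 0 and 3 in Ctrl, 2 and 3 in dPOLE4, 0 and 1 in Ctrl MCM2-2A and 0 and 2 in dPOLE4 MCM2-2A, and in the last between 1 and 4 at T24 and 2 and 4 at T60. It lay between 0 and 1 for the interaction at T60 and between 1 and 3 for the difference of the RA response in dPOLE4 cells. Depth limits Asz1, with under 10 counts in 30 of the 60 libraries.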
